A study of Mus musculus with 8 samples.

Results

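The genes described are 50 genes of DNA replication and S phase, followed from the recognition of replication origins to the packaging of new DNA, in single cells of the mouse endocardium, the inner lining of the heart. Members were the probes on the array that carry one of 56 listed names (the 6 subunits of the origin recognition complex are listed under an older and a newer name each), and where a gene had several, the brightest on average over the arrays stands for it. They make up 50 of 35715 gene names on the array and 63 probes. They were listed by function and not by a measured difference, but earlier results of these data were known when they were chosen. Of these genes, 38 had 1 probe and 12 had more.

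The data were 8 arrays, 1 for each cell, carrying RNA made in vitro from its amplified cDNA. The 4 WT cells were Mesp1+/+ Sox17flox/flox and the 4 Sox17 KO cells were Mesp1Cre/+ Sox17flox/flox, so that both genotypes carried floxed Sox17 alleles and the KO alone carried Cre, which the Mesp1 locus drives in nascent mesoderm and thus in most lineages of the heart. All cells came from embryos at embryonic day 8.5 with 9 somites and were assigned to the endocardium by PCR of marker genes. Neither the labels nor the methods name the embryo of a cell, so a genotype counts as 1 sample here: values are given per cell, each difference stands beside the spread of the cells, and no test was made. Sox17 itself was not well above background in any cell on either of its 2 probes, so its own signal is no check of the genotypes. All arrays were on 1 slide, with each genotype in a column of its own, and column and genotype cannot be told apart.

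In G1 the origin recognition complex, with CDC6 and CDT1, loads the ring of MCM2 to MCM7 onto DNA; in S phase GINS and CDC45 turn that ring into an active helicase, primase and the polymerases copy both strands, PCNA holds the polymerases on DNA, RPA coats single strands, and FEN1 and LIG1 join the fragments of the lagging strand. Many of these genes are E2F targets that are transcribed around the passage from G1 to S, and the endocardium of the early heart tube is a dividing tissue.

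The scanner software called 11370 to 18175 probes well above background per cell. Signals were scaled between arrays, values under 50 were set to this floor (5.64 on the log2 scale), and all levels below are scaled log2 signals of 1 probe, to be compared between cells and not between genes. Pearson's r between cells, across 26833 probes, ran from 0.664 to 0.765, and no pair of arrays was alike enough to be repeat files of 1 cell. WT cell 1 stood apart: it had the fewest probes above background, and its replicate spots had a median coefficient of variation of 13.7% against 6.18% to 8.90% on the other arrays. Endocardial or endothelial markers were well above background for 7 to 10 of 10 genes in WT cells and 6 to 9 in KO cells, cardiomyocyte markers for 3 to 6 and 3 to 7 of 8, smooth muscle markers for 2 of 3 in every cell, blood markers for 1 of 5 in each WT cell and 0 in KO cells, and endoderm markers for 0 of 5 in every cell. The summed signal of the cardiomyocyte list ran from 527 to 34227 in WT and from 1209 to 48892 in KO cells. It was highest in KO cell 1, WT cell 2 and KO cell 4 (29029). The summed signal of the smooth muscle list was 14425 in WT cell 2 and 7772 in KO cell 4, against 150 to 315 in the other cells. The part of these signals in the results was not tested.

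Transcripts of the replication genes were found in all 8 cells, but no cell had the whole set. In WT cells 1 to 4, the probes of 23, 39, 39 and 43 of the 50 genes were well above background, and in KO cells 1 to 4 those of 32, 30, 43 and 42. These are 46.0% to 86.0% of the members, against 25.6% to 40.0% of the 35379 genes with a usable probe on every array. The cells with the fewest members, WT cell 1, KO cell 2 and KO cell 1, also had the fewest of all genes above background, and the ranges of the genotypes overlapped. The median level over the members was 5.64 (the floor), 9.72, 10.39 and 10.49 in WT cells and 6.38, 5.64, 10.69 and 9.05 in KO cells. A low number of members did not mean low scaled levels throughout: WT cell 1, with 23 members above background, held the highest level of the 8 cells for 9 genes (Orc6, Mcm2, Mcm3, Mcm6, Pcna, Rpa3, Lig1, Chaf1b and Uhrf1), and only KO cell 4 held more, with 10. Before scaling, WT cell 1 had the lowest 50th percentile, 109 against 135 to 427 in the other cells. Its signals were thus scaled up the most, and its ranks depend on that scaling. Of 399 gene and cell pairs with a usable spot, 291 were well above background and 153 lay at the floor, 45 of them both.

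**Figure D1:**
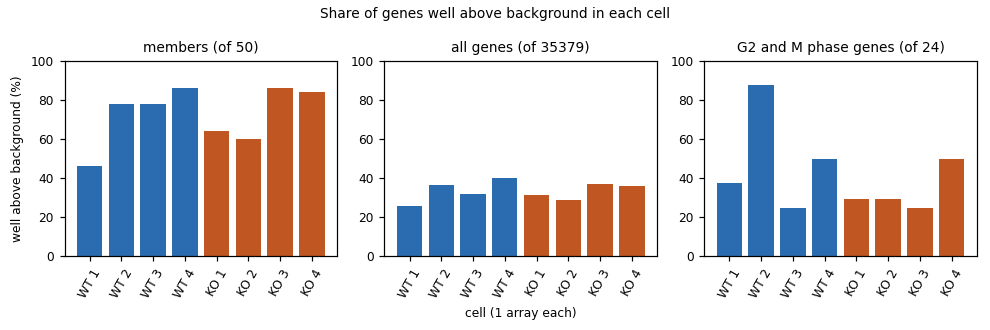
Each bar is the share of genes (%, y axis) whose probe was well above background in 1 cell (x axis), for the 50 replication genes, for all 35379 genes and for 24 G2 and M phase genes, with WT cells in blue and KO cells in orange. Members were detected in 46.0% to 86.0%, more than all genes in every cell, while 21 of the 24 G2 and M phase genes were detected in WT cell 2 and at most 12 in any other cell.

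By step, detection was most complete for ribonucleotide and thymidylate supply (24 of 24 gene and cell pairs), for the enzymes of Okazaki fragments (16 of 16), for RPA (23 of 24) and for the MCM genes (51 of 56). It was least complete for the origin recognition complex (17 of 48), for polymerase alpha and primase (15 of 32) and for licensing factors (12 of 24). In between lay chromatin assembly (28 of 32), the clamp and its loader (39 of 48), polymerases delta and epsilon (30 of 40), GINS (21 of 32) and G1/S control (15 of 24). Shares of this kind depend on the probes as well as on the transcripts, so their order is a description of these arrays. In all, 18 genes were well above background in all 8 cells, 16 in 5 to 7 cells and 16 in 1 to 4 cells.

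**Figure D2:**
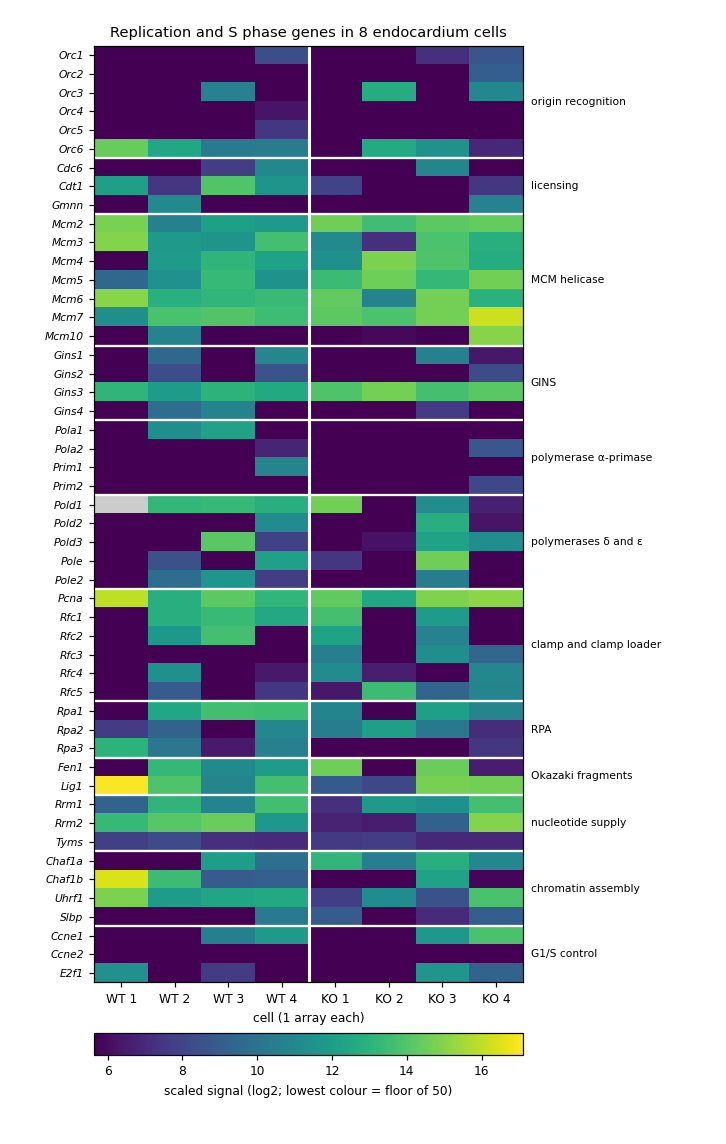
Rows are the 50 replication genes grouped by step, columns are the 4 WT and 4 KO cells, and colour is the scaled log2 signal of 1 probe per gene, to be read along a row (darkest, the floor at 5.64; grey, no usable spot). The Mcm2 to Mcm7 rows are bright in almost every cell, that of Mcm10 is dark in most, 5 of the 6 origin recognition rows are dark in most, and WT cell 1 and KO cells 1 and 2 hold the most dark squares (31, 24 and 27 members at the floor).

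Between genotypes the replication genes did not move one way. Over the 49 genes usable on all arrays (the spot of Pold1 was not usable in WT cell 1), the mean was higher in KO for 23, lower for 25 and equal for 1, and the median over genes of the log2 difference (mean of KO minus mean of WT cells) was -0.09, against 0.00 over all 35379 genes. At least 5-fold lower in KO were 7 of 49, namely Orc6, Cdt1, Pola1, Rpa3, Rrm2, Chaf1b and Uhrf1 (14.3%, where 1.87% of all genes were), and at least 5-fold higher were 5 of 49, namely Mcm4, Mcm5, Rfc3, Rfc5 and Chaf1a (10.2%, where 1.85% of all genes were). Most genes of the array lie at the floor in most cells and could not differ, so smaller backgrounds are given too: among 10435 genes well above background in at least 5 cells 4.00% were lower and 4.58% higher by 5-fold, and among 6104 genes above the floor in at least 5 cells, a background added after seeing the data, 4.41% were lower and 5.90% higher. The members in those backgrounds were 33 (6 lower, 4 higher) and 26 (again 6 and 4).

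For most members the spread between cells was wider than the difference, though not for most of those 5-fold apart. Among the 33 members of the first smaller background, the median absolute difference was 1.47 and the median pooled SD between cells of a genotype 2.41, while over the 10435 genes these were 0.45 and 0.88. Of the 49 genes, 35 had a pooled SD larger than their difference, and of the 12 that were 5-fold apart, 10 had a difference larger than their SD (Orc6 and Mcm4 did not). Every KO cell lay above every WT cell for 1 gene, Gins3, which is 2.04% of the 49 against 0.647% of all genes. In the smaller backgrounds it is 3.03% of 33 members against 2.16% of the 10435 genes, and 3.85% of 26 against 3.62% of the 6104, so the share is near the background there. Every KO cell lay below every WT cell for none of the 49, as for 0.144% of all genes, 0.45% of the 10435 and 0.573% of the 6104.

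**Figure D3:**
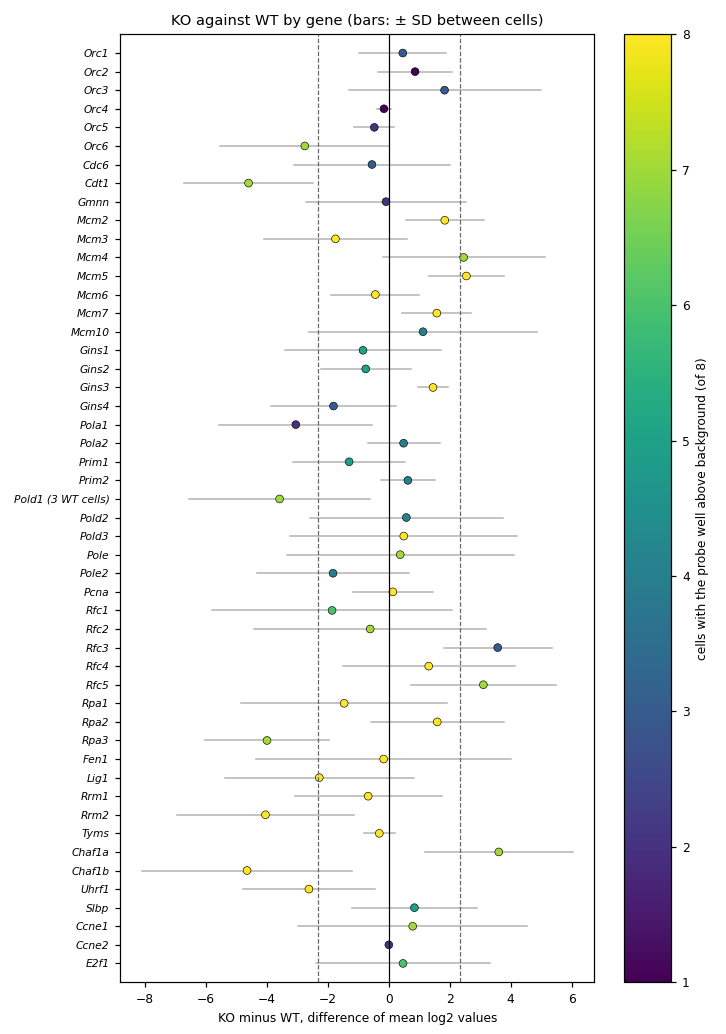
Each point is the log2 difference between the KO and WT means (x axis) of 1 gene (y axis, in order of replication steps), the grey bar is ± the pooled SD between cells of a genotype, colour is the number of cells with the probe well above background, and dashed lines mark 5-fold. Points lie on both sides of 0 in most steps, from -4.65 for Chaf1b to 3.61 for Chaf1a, and most bars cross 0.

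The origin recognition complex marks where replication can start. Orc6, its smallest subunit, was the one member of the complex seen in most cells, at 14.44, 12.47, 10.39 and 10.49 in WT cells 1 to 4 and at 5.64, 12.64, 11.54 and 6.93 in KO cells 1 to 4. KO cells 1 and 4 were below every WT cell, and KO cells 2 and 3 lay within the WT range. The difference of means was -2.76 with a pooled SD of 2.77, and it fell short of 5-fold without WT cell 1 (-1.93), KO cell 1 (-1.58) or KO cell 4 (-2.01), and with a floor of 200 (-2.08). Orc1 to Orc5 were each well above background in 1 to 3 cells, 5 times in WT and 5 times in KO cells, and the brightest were Orc3 in KO cell 2 (12.72) and KO cell 4 (10.99). For genes with no cell above background in one genotype the fold was taken against the floor. Dim cells of the brighter genotype were counted at the floor too, so the fold is no strict bound and depends on the floor. This fold was 1.82-fold higher in KO for Orc2 (1 KO cell), 1.12-fold lower for Orc4 (1 WT cell) and 1.39-fold lower for Orc5 (2 WT cells).

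Cdt1 encodes the licensing factor that brings the MCM ring to the origin and is degraded once S phase begins. Its levels were 12.09, 7.47, 13.99 and 11.59 in WT cells and 7.94, 5.64, 5.64 and 7.49 in KO cells. No KO cell reached the levels of WT cells 1, 3 and 4, but WT cell 2 lay below the highest KO cells, so the genotypes overlapped. The difference was -4.61 (24.3-fold lower in KO) with a pooled SD of 2.12, and stayed between -5.88 and -3.61 under every setting tried. Cdt1 is on the study's list of probes decreased in KO endocardium, as are Pold1, Rpa3, Rrm2 and Chaf1b, and since that list was drawn from the same cells it is no independent evidence of direction. The first 30 bases of its probe, whose signal these values are, lie at the start of chr8:125096893-125096952 (mm9, plus strand, as annotated on the array) and are shown with the probe of Gins3 (chr8:98168040-98168099, plus strand), the gene without overlap.

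Cdt1 probe: tctgagagtgaaattgggccttctgtaaat

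Gins3 probe: catcaagggaatgggcactgttcaaaagga

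Cdc6, the partner of Cdt1 in loading, was well above background in 2 WT cells and 1 KO cell, with its highest levels in WT cell 4 (10.97) and KO cell 3 (10.84). Gmnn, which encodes the CDT1 inhibitor geminin, was above background in WT cell 2 (11.08) and KO cell 4 (10.71), while the remaining 6 cells were at the floor. Both genes differed by less than their spread, by -0.55 (pooled SD 2.56) and -0.09 (pooled SD 2.63).

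The MCM genes were the step with the highest share of detected genes among the steps with more than 4 members, and 5 of its 7 genes had a higher mean in KO, with a median difference of 1.58. The ring itself is a hexamer of MCM2 to MCM7. Mcm5, whose product sits at the gate where the ring opens, had levels of 9.47, 11.45, 13.33 and 11.50 in WT and of 13.45, 14.56, 13.28 and 14.64 in KO cells. All KO cells were above 3 of the WT cells, and WT cell 3 lay just above the lowest KO cell. The difference was 2.55 (5.84-fold) with a pooled SD of 1.22, and it was under 5-fold without WT cell 1 (1.89), with the 75th percentile (2.16), with all probes for the percentile (2.30) and with quantile normalization (1.68).

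Mcm7 behaved much as Mcm5 did, at 11.36, 13.82, 14.00 and 13.52 in WT and 14.22, 13.86, 14.71 and 16.22 in KO cells. WT cell 3 lay just above the lowest KO cell, and the difference was 1.58 with a pooled SD of 1.14 (0.97 without WT cell 1). Mcm2 was at 14.81, 10.69, 12.17 and 11.82 in WT and at 14.63, 13.59, 14.23 and 14.38 in KO cells. Its 4 KO cells lay close together and above 3 WT cells, while WT cell 1 was the highest of all, and the difference was 1.84 with a pooled SD of 1.27, rising to 2.65 without WT cell 1.

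Mcm4 was at 5.64 (the floor), 11.99, 13.16 and 12.28 in WT cells, against 11.40, 14.84, 13.93 and 12.73 in KO cells. Its difference of 2.46 (pooled SD 2.66) rested on WT cell 1: without it the difference was 0.75, and it also missed 5-fold without KO cell 2 (1.92) or KO cell 3 (2.22). With all cells it was likewise under 5-fold, at 1.94 to 2.15, when the arrays were scaled in any of the other ways tried (3 of them), with normexp, with the floor set before scaling or with a floor of 200. Mcm3 went the other way on average, at 14.96, 11.84, 11.56 and 13.68 in WT and 11.08, 7.22, 13.86 and 12.88 in KO cells. KO cells 3 and 4 lay within its WT range and KO cell 2 far below, so the difference of -1.75 (pooled SD 2.36) shrank to -0.40 without KO cell 2 and to -1.10 without WT cell 1. Mcm6 had 15.08, 12.91, 13.19 and 13.37 in WT and 14.34, 10.77, 14.71 and 12.94 in KO cells, and its difference of -0.44 (pooled SD 1.44) changed sign without KO cell 2 (0.36) or WT cell 1 (0.04).

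The products of Mcm2 to Mcm7 act in 1 ring, yet their levels did not rise and fall together over these cells. Over the 15 pairs of the 6 genes, Pearson's r across the 8 cells had a median of 0.03, from -0.63 for Mcm4 with Mcm6 to 0.83 for Mcm5 with Mcm7. These r values are over 8 cells that differ in library depth and in genotype, so they are a description. Mcm10, which binds the ring at the start of synthesis, was above background in 4 cells and highest in KO cell 4 (15.01), followed by WT cell 2 (10.78).

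Promoters are shown for Mcm5, Mcm6, Mcm7 and Gins3, each with a promoter that holds letters of an E2F site. The promoters of Mcm2, Mcm3 and Mcm10 and another promoter of Mcm7 held none. A promoter of Uhrf1 held 1 site and is not shown. The motifs sought were TTTCCCGC, TTTCGCGC, TTTGCCGC and TTTGGCGC on both strands, in the 250 bases before the start of transcription (RefSeq, GRCm38.p6), where a motif on one strand may overlap one on the other. Each stretch below is 120 bases, on the strand of the gene, ending at base 1 before the start for Mcm6 and Gins3, at base 86 for Mcm5 and at base 102 for Mcm7, with motif letters in capitals and sites that overlap run together. The windows are chr8:75109304-75109423 for Mcm5 (plus strand), chr1:128359706-128359825 for Mcm6 (minus), chr5:138171985-138172104 for Mcm7 (minus) and chr8:95633439-95633558 for Gins3 (plus).

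Mcm5 promoter: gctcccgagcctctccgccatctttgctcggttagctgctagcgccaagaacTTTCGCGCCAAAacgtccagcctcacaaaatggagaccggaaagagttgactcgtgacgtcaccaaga

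Mcm6 promoter: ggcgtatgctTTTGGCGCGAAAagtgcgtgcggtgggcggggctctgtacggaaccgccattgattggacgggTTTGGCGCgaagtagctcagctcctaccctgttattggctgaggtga

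Mcm7 promoter: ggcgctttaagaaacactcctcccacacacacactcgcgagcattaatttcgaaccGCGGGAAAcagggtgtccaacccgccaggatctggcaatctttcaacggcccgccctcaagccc

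Gins3 promoter: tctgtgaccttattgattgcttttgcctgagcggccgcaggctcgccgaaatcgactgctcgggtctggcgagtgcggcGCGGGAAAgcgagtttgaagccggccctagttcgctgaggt

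The sites numbered 2 in Mcm5, 3 in Mcm6, 1 in Mcm7 and 1 in Gins3. Of the 50 genes, 41 matched a promoter, with 50 promoters between them. An E2F motif was in a promoter of 10 of these 41 genes (24.4%) and of 583 of all 27025 genes (2.16%), and CCAAT, the letters bound by NF-Y, on either strand was in 61.0% and 37.5%. Of all 32851 promoters, 1.86% held the E2F letters and 33.8% CCAAT. Among matched members, 2 of the 7 that were 5-fold lower in KO, 2 of the 4 that were 5-fold higher and 6 of the 29 others with a value on all arrays held the E2F letters. A match is no evidence that a factor binds there, and the absence of one says only that these letters are not in the window.

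GINS joins the loaded ring to make the helicase that unwinds DNA, and its 4 subunits are made by Gins1 to Gins4. Gins3 was at 13.12, 11.95, 13.07 and 12.60 in WT cells and at 13.94, 14.70, 13.74 and 14.17 in KO cells. Every KO cell was above every WT cell, with a gap of 0.61 between the highest WT and the lowest KO cell. The difference was 1.45 (2.73-fold), larger than its pooled SD of 0.48, but with quantile normalization it was 0.88. The cells of the genotypes stayed apart under all 18 alternatives, with a smallest gap of 0.36. Leaving out a cell cannot create an overlap, and the floors, filters and probe averaging left the difference unchanged. Only the other ways of scaling and normexp could have brought an overlap. The other subunits did not share this: Gins1 and Gins2 were above background in 5 cells each and Gins4 in 3, with mean levels lower in KO by -0.85, -0.76 and -1.82 and pooled SDs of 2.57, 1.48 and 2.04.

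**Figure D4:**
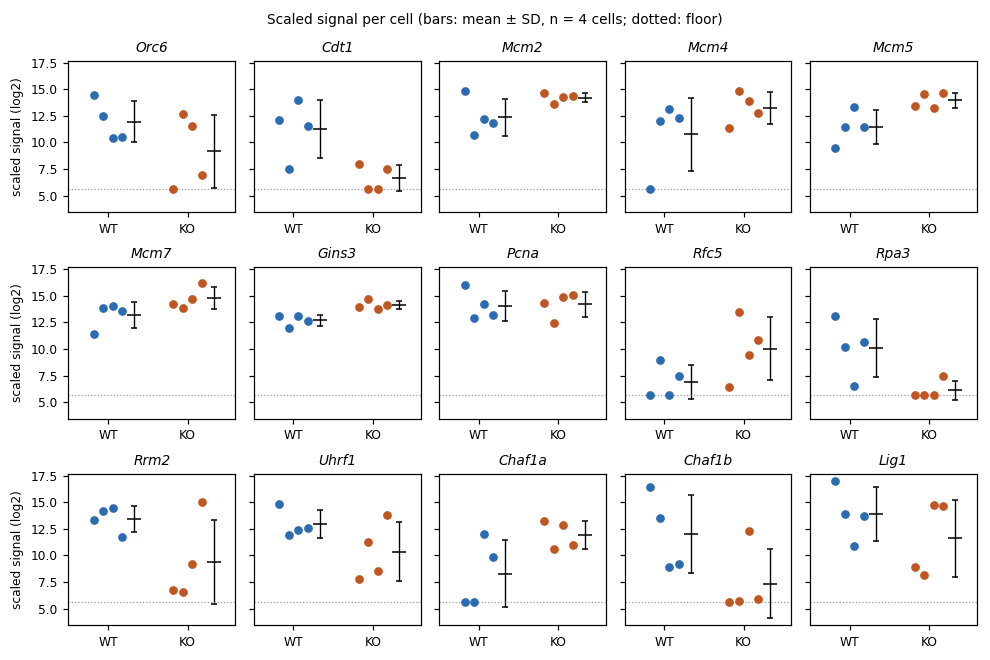
Each dot is the scaled log2 signal (y axis) of 1 cell for 15 replication genes, WT in blue and KO in orange, with the mean ± SD of 4 cells beside them and the floor as a dotted line. Gins3 is the 1 panel in which the genotypes do not overlap, Cdt1 and Rpa3 overlap through 1 low WT cell, and in Rrm2 and Chaf1b a single KO cell lies as high as WT cells.

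Polymerase alpha and primase lay down the short RNA and DNA primers. Pola1, its catalytic subunit, was above background in WT cell 2 (11.26) and WT cell 3 (12.25) and in no KO cell. With all other cells at the floor this gives 8.31-fold lower in KO. That fold rested on those 2 cells, since the difference of -3.05 fell short of 5-fold without WT cell 2 (-2.20) or WT cell 3 (-1.87), and also with a floor of 200 (-2.05). Pola1 and Rfc3 below are named because they belong to the counts of 5-fold differences, and were chosen after their values were seen. Pola2, Prim1 and Prim2 were above background in 4 or 5 cells each, mostly at the floor, with one bright cell each: Prim1 reached 10.86 in WT cell 4, Pola2 8.77 and Prim2 8.15 in KO cell 4.

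The polymerases that extend the primers, delta and epsilon, were detected unevenly. Pold1, the catalytic subunit of polymerase delta, was at 13.23, 13.32 and 12.86 in WT cells 2 to 4 and at 14.65, 5.64, 11.24 and 6.66 in KO cells. The 3 WT cells with a value lay close together and the KO cells spread from far below to above them, so the difference of -3.59 over 3 WT and 4 KO cells had a pooled SD of 2.96 and was -2.29 without KO cell 2. Pold3, a smaller subunit, was above background in all 8 cells but at the floor in 3, with its highest levels in WT cell 3 (14.19) and KO cell 3 (12.23) and a difference of 0.49 (pooled SD 3.73) that changed sign without WT cell 1 (-0.41), WT cell 2 (-0.41), KO cell 3 (-0.64) or KO cell 4 (-0.32). Pole, the catalytic subunit of polymerase epsilon, ranged from the floor to 12.18 in WT and to 14.63 in KO cells, with a difference of 0.37 (pooled SD 3.72). Pold2 and Pole2 were each above background in 4 cells, with differences of 0.58 and -1.83.

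PCNA is the sliding clamp, and its transcript was well above background and above the floor in every cell. Pcna had levels of 15.99, 12.87, 14.21 and 13.19 in WT and 14.31, 12.48, 14.90 and 15.10 in KO cells. The genotypes overlapped fully, and the difference of 0.13 (pooled SD 1.30) ran from -0.34 to 0.78 under the settings tried. The chosen Pcna probe is annotated at chr19:9358883-9358942 (mm9, plus strand), while RefSeq places the gene on chromosome 2. The same holds for the probes of Mcm7 (chr16:53986163-53986222, gene on chromosome 5) and Rrm2 (chr19:35175128-35175187, gene on chromosome 12), so the signal of these 3 probes may include a near-identical copy elsewhere, and their values are uncertain to that extent.

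The clamp is loaded by the 5 subunits of replication factor C, which did not move together. Rfc5 was at 5.64, 8.92, 5.64 and 7.50 in WT and at 6.38, 13.50, 9.39 and 10.85 in KO cells. KO cells 2, 3 and 4 were above every WT cell, KO cell 1 was within the WT range, and the difference was 3.10 (8.60-fold) with a pooled SD of 2.38, or 1.95 without KO cell 2. Rfc3 was above background in no WT cell and in 3 KO cells, at 10.53, 11.27 and 9.43 in KO cells 1, 3 and 4. With all other cells at the floor this gives 11.9-fold higher in KO. Its difference stayed over 5-fold without any 1 cell (2.89 to 4.77) but not with a floor of 200 (2.07). Rfc4 was bright in WT cell 2 (11.38) and KO cells 1 and 4 (11.17 and 10.95) and at most 6.59 elsewhere, with a difference of 1.31 (pooled SD 2.82). Rfc1 and Rfc2 were lower in KO on average, by -1.86 and -0.61, with pooled SDs of 3.95 and 3.81, and each lay over 10 in some cells of both genotypes and at the floor in others.

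RPA, the trimer that coats single-stranded DNA, was detected nearly everywhere. Rpa3, its smallest subunit, was at 13.05, 10.18, 6.48 and 10.65 in WT and at the floor in KO cells 1 to 3 and 7.43 in KO cell 4. The genotypes overlapped through WT cell 3 alone, and the difference of -4.00 (16.0-fold lower in KO) had a pooled SD of 2.02 and lay between -5.20 and -2.74 under every setting. Rpa1, the large subunit, was at 5.64, 12.53, 13.63 and 13.54 in WT cells, against 10.82, 5.64, 12.16 and 10.86 in KO cells. Its difference was -1.47 (pooled SD 3.39), -3.36 without WT cell 1 and -0.06 without KO cell 2. Rpa2 pointed upwards, at 7.69, 9.30, 5.64 and 10.96 in WT and 10.45, 12.16, 10.24 and 7.11 in KO cells, by 1.59 with a pooled SD of 2.19 (0.67 without WT cell 3, 0.87 without KO cell 2 and 2.55 without KO cell 4).

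FEN1 trims the flap of each Okazaki fragment and LIG1 seals the nick. Lig1 was at 17.03, 13.93, 10.85 and 13.71 in WT and at 8.88, 8.12, 14.73 and 14.66 in KO cells. KO cells 1 and 2 lay below every WT cell and KO cells 3 and 4 above 3 of them, and the difference of -2.28 (4.87-fold, pooled SD 3.10), just short of 5-fold, was -1.23 without WT cell 1, -1.12 without KO cell 2 and -1.38 without KO cell 1. Fen1 was at the floor in WT cell 1, near it in KO cells 2 (5.70) and 4 (6.56), and between 11.09 and 14.58 in the other 5 cells, with a difference of -0.17 and the widest pooled SD of all members, 4.18. It was -1.79 without WT cell 1, -1.59 without KO cell 1, -1.55 without KO cell 3, 1.37 without KO cell 2 and 1.09 without KO cell 4, and so has no settled sign.

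Ribonucleotide reductase makes the DNA precursors from a large subunit, RRM1, and a small subunit, RRM2, whose protein is limited to S phase. Rrm2 was at 13.32, 14.12, 14.47 and 11.74 in WT cells and at 6.76, 6.51, 9.21 and 14.98 in KO cells. KO cells 1 to 3 lay below every WT cell and KO cell 4 above them all. The difference was -4.05 (16.6-fold lower in KO) with a pooled SD of 2.91. It was -5.92 without KO cell 4 and -3.10 without KO cell 2. Rrm1 was at 9.29, 13.13, 10.77 and 13.64 in WT and 7.23, 11.80, 11.38 and 13.72 in KO cells, a difference of -0.68 (pooled SD 2.41) that turned to 0.59 without KO cell 1. Tyms, for thymidylate synthase, was the steadiest gene but for Gins3 among those above the floor in every cell, between 6.91 and 8.29, with a difference of -0.31 and a pooled SD of 0.50.

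Behind the fork, CAF-1 places histones on the new DNA. Its large subunit is made by Chaf1a and its middle subunit by Chaf1b, and these 2 genes held the highest and the lowest difference of the 49. Chaf1b was at 16.48, 13.48, 8.93 and 9.14 in WT and at 5.64, 5.67, 12.25 and 5.85 in KO cells. KO cells 1, 2 and 4 lay at or near the floor and KO cell 3 within the WT range, with a difference of -4.65 (25.2-fold lower in KO, pooled SD 3.46). Without KO cell 3 it was -6.29 and without WT cell 1 -3.17. Chaf1a was at 5.64, 5.64, 12.00 and 9.83 in WT and at 13.19, 10.56, 12.83 and 10.97 in KO cells. WT cells 1 and 2 were at its floor, WT cell 3 lay above KO cells 2 and 4, and the difference was 3.61 (12.2-fold higher in KO, pooled SD 2.43), over 5-fold under every setting (2.61 to 4.85). The subunits thus differed in direction, and the WT cells brightest for Chaf1b, cells 1 and 2, were those at the floor for Chaf1a. Their probe letters are given because these 2 genes bound the range: Chaf1a at chr17:56206969-56207028 and Chaf1b at chr16:93906219-93906278, with the dimmer Chaf1b probe at chr16:93906269-93906329 (mm9, plus strands), first 30 bases each.

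Chaf1a probe: agtgacaggtgtcaagttgaaagacctggg

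Chaf1b probe, brighter: atgcccaaaacctggcccctgatgactctt

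Chaf1b probe, dimmer: tatgcacttgcgtcagaggaggcaaggcca

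Uhrf1, whose product brings the maintenance methyltransferase to newly copied DNA, was at 14.84, 11.96, 12.41 and 12.61 in WT and at 7.77, 11.23, 8.49 and 13.83 in KO cells. KO cells 1 to 3 were below every WT cell and KO cell 4 above 3 of them. The difference of -2.62 (6.16-fold lower, pooled SD 2.16) was under 5-fold without WT cell 1 (-1.99), KO cell 1 (-1.77) or KO cell 3 (-2.01) and as the mean of its probes (-1.31). Slbp, which binds the stem loop of histone mRNA, was above background in 5 cells, with a difference of 0.84 (pooled SD 2.05).

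Of the genes that control entry into S phase, Ccne1, for cyclin E1, was bright in WT cells 3 and 4 (10.59 and 11.83) and KO cells 3 and 4 (11.75 and 13.82) and at the floor in the other 4. E2f1, for the transcription factor, was above the floor in WT cells 1 and 3 (11.46 and 7.62) and KO cells 3 and 4 (11.63 and 9.31). Ccne2 was at the floor in all 8 cells. Neither Ccne1 (0.78, pooled SD 3.76) nor E2f1 (0.47, pooled SD 2.84) differed by more than its spread.

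How far a single array spot can be trusted was seen where 2 probes of a gene were each above background in some cell, as for 7 genes. Both probes of Chaf1b, which share 10 bases, gave r = 0.99 over the 8 cells and differences of -4.65 and -3.83. The 2 probes of Rpa1, 162 bases apart, gave r = 0.99 and -1.47 and -1.68, and those of Mcm3, which share 43 bases, r = 0.99 and -1.75 and -1.28. Farther apart on the genome, the probes of Cdc6 (2183 bases) gave r = 0.64 with -0.55 and -1.18 (KO cell 3 was at 10.84 on one and at the floor on the other), those of Slbp (3599 bases) gave r = 0.81 with 0.84 and -0.13, those of Rfc4 (6958 bases) r = 0.74 with 1.31 and 0.00, and those of Pole (24411 bases) r = -0.08 with 0.37 and 0.48. For Chaf1b, Rpa1 and Mcm3 the differences between cells were thus seen by both probes. These probes overlap or lie 162 bases apart, so their agreement checks the spots and not the amplification of the cell's cDNA. Of the other 13 probes of members, 6 were above background in no cell.

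**Figure D5:**
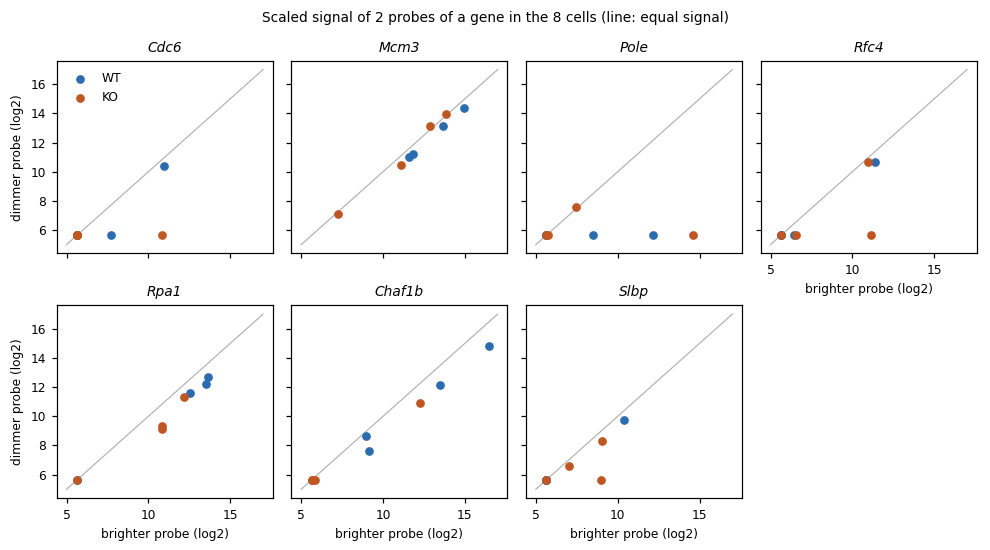
Each panel plots the scaled log2 signal of the brighter probe of a gene (x axis) against its dimmer probe (y axis) in the 8 cells, WT in blue and KO in orange, with the line of equal signal. Cells follow the line for Mcm3, Rpa1 and Chaf1b (r = 0.99), while the dimmer probe of Pole lies at the floor in cells where the brighter probe reaches 14.63.

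Across cells the members did not rise and fall as a group. Over the 528 pairs of the 33 members above background in at least 5 cells, Pearson's r across the 8 cells had a median of 0.04 with quartiles of -0.26 and 0.33. Over 8963 genes of the same detection that varied, the median was 0.01 with quartiles of -0.29 and 0.35. The highest r was 0.94, for Rfc1 with Fen1, and the lowest -0.90, for Tyms with Ccne1. With 8 cells and so many pairs such extremes are a description alone.

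The wider pathway was read from 38 other replication and S phase genes, 37 of them usable on all arrays (not Dna2). Their probes were above background for 10, 24, 24 and 20 genes in WT cells 1 to 4 and for 17, 15, 24 and 24 in KO cells, and 32 were seen in some cell. In KO the mean was higher for 18, lower for 13 and equal for 6, with a median difference of 0.00. By at least 5-fold 1 gene was lower and 4 were higher, where 1.87% and 1.85% of all genes were. Among the 10435 genes above background in at least 5 cells these shares were 4.00% and 4.58%, and 18 of the 37 were detected in that many cells. The lower gene was Tk1, for thymidine kinase (-2.47, pooled SD 2.95), and the 4 higher genes were Nasp, a histone chaperone (4.37, pooled SD 2.58), Top1, for topoisomerase I (4.06, pooled SD 3.16), Clspn, for the checkpoint adaptor claspin (2.69, pooled SD 1.75), and Tipin, of the fork protection complex (2.64, pooled SD 2.87). Nasp was at 5.64, 10.95, 5.64 and 12.48 in WT and at 12.71, 14.24, 12.40 and 12.86 in KO cells, so WT cell 4 lay above the lowest KO cell. Nasp and Top1 stayed over 5-fold without any 1 cell, Clspn did not without KO cell 2 or 4, Tipin not without KO cell 2 or 3, and Tk1 not without WT cell 1 or 3 or KO cell 2 or 3. None of the 37 had genotypes that did not overlap. These 5 were named because they make up the counts, after their values were seen.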

How the data were processed

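The labels and methods describe single cells picked by capillary, cDNA amplification, in vitro transcription and hybridization to Agilent 1-colour arrays (Cy3, design 028005, mm9 annotation). The authors deposited the intensity of each spot from Agilent Feature Extraction 12.0.2.2, background-subtracted but not normalized between arrays, with a flag for spots well above background (a column of unit other, deposited with it). Here spots flagged as outliers were dropped and spots of a probe averaged; 55295 of 55681 probes were usable on all 8 arrays. A probe was well above background where over 50% of its spots were. Arrays were brought to a common 50th percentile, taken over 7570 probes that passed this call in every cell, then floored at 50 and turned to log2. This compresses low signals, and 45 gene and cell pairs above background lie at the floor. The number of arrays limits the precision.

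Cells are no replicates of a genotype here, since no embryo is named, so no test was run, and differences of means are given with the pooled SD between cells. Fold is 2 to the difference of mean log2 values. Genes named by rule were those on the study's list, above background in all 8 cells, or without overlap. Those 5-fold apart and above background in all 4 cells of the brighter genotype were named too. This gave 25 genes, all given with every usable cell except Pold3, Rfc4, Fen1 and Tyms, which are given by ranges or brightest cells. Members, lists and this rule were chosen with earlier results of these data known. Alternatives were leaving out each cell in turn, a 75th percentile, a percentile over all probes, quantile normalization, limma's normexp (offset 50, no floor), flooring before scaling, a floor of 10 or 200, averaging a gene's probes, a detection filter and the positive-and-significant call; a filter on genes above the floor was added after seeing the data. Steps were tested on simulated data, with known shifts placed in bright probes only and less spread between cells than the members had. That test does not cover members at the floor or with a wide spread. Analyses used Python 3.11.15, numpy 2.4.6, pandas 2.3.3, matplotlib 3.10.9, R 4.3.3 and limma 3.58.1.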

Additional observations from a re-analysis of the deposited data

Results flagged for a closer look

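Of 53 groups of 4 cells (among them the genes named by rule, in each genotype, and the median over members), 6 had 1 cell far from the other 3, judged by its gap to the nearest cell as a share of the group's whole range. Chance flags about 1 in 20 groups of untied values, a rate that does not hold for cells tied at the floor or for groups that share cells. The gap was 0.844 of the range for Mcm4 in WT cells, where WT cell 1 was below, 0.862 for Rpa1 in WT cells, again WT cell 1, and 0.84 for the median over members in WT cells, where WT cell 1 was at the floor. For Rfc4 in WT cells, WT cell 2 was above the others (0.86), with 2 cells at the floor. In KO cells, KO cell 4 was above the others for Rpa3, a gap of 1 because the other 3 were at the floor, and KO cell 3 was above the others for Chaf1b (0.969). The difference without that cell was 0.75 for Mcm4, -3.36 for Rpa1, 2.68 for Rfc4, -4.45 for Rpa3 and -6.29 for Chaf1b.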

How the results depend on the processing

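Members at least 5-fold lower in KO numbered 7, and from 5 (floor of 200) to 10 (floor of 10) under other settings, and 6 to 10 on leaving out each cell. Members at least 5-fold higher numbered 5, and 3 with the 75th percentile, all probes for the percentile, quantile normalization or a floor of 200, and 3 to 7 on leaving out each cell (3 without KO cell 2). No member had every KO cell below every WT cell, against 1 (Cdt1) with the 75th percentile or all probes for the percentile, and 0 to 3 without a cell (3, Rpa3, Rrm2 and Uhrf1, without KO cell 4). Gins3 had every KO cell above every WT cell in all settings, though only the other ways of scaling and normexp could have brought an overlap. With normexp and no floor Mcm5 joined it (2), and 1 to 4 did without a cell (4, with Mcm5, Mcm7 and Chaf1a, without WT cell 3). The median difference ran from -0.31 to 0.13 over settings and on leaving out a cell reached -0.54 (KO cell 3) and 0.36 (KO cell 2), so it has no settled sign. Of 449 differences of the 25 named genes under alternatives, 448 lay within the SD between cells of their main value, and the other was Gins3 with quantile normalization (0.88 against 1.45). Leaving out a cell cannot move a difference by more than its pooled SD here, and the filters leave values unchanged. For those settings the count was fixed in advance, and moves within the SD can be large, as for Mcm4 (0.75 to 3.25). Cdt1, Rpa3, Rrm2, Chaf1a and Chaf1b were over 5-fold apart in the same direction under every setting. The causes of these moves were not tested. No paired analysis was possible because the result comes from no test and replicate numbers name single cells. The number of probes above background, from 11370 to 18175, limits what each cell shows.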

Other observations

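The genes of mitosis were found unevenly over the cells. Of 24 G2 and M phase genes, 21 were well above background in WT cell 2, and 9, 6 and 12 in WT cells 1, 3 and 4 and 7, 7, 6 and 12 in KO cells 1 to 4. WT cell 2, with 39 of 50 replication genes above background, thus held the most of this list, while KO cell 3, with 43 replication genes, held 6. The mean was higher in KO for 3 of the 24 genes, lower for 18 and equal for 3, with a median difference of -0.89. The lean in these counts rested largely on WT cell 2: without it 6 were higher, 9 lower and 9 equal, with a median of 0.00. By at least 5-fold, 4 were then still lower (Aurka, Plk1, Birc5 and Cks2) and 2 higher (Ccnb2 and Cenpa). With all cells 6 were at least 5-fold lower and 2 at least 5-fold higher, where 1.87% and 1.85% of all genes were. Among the 10435 genes above background in at least 5 cells these shares were 4.00% and 4.58%, and 8 of the 24 were detected in that many cells. No gene of the list had genotypes that did not overlap, as 0.144% (lower) and 0.647% (higher) of all genes had.

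Birc5, for the chromosome passenger survivin, was at 14.43, 11.40, 5.64 and 13.15 in WT cells and at the floor in all KO cells. Plk1, a mitotic kinase, was at 11.92, 14.01, 5.64 and 10.42 in WT cells and at the floor in KO cells 1 to 3 and 7.05 in KO cell 4. Ccnb2, for cyclin B2, went the other way, at 12.66, 11.49, 5.64 and 9.75 in KO cells and at most 6.55 in WT cells. Their differences were -5.51 (pooled SD 2.74), -4.51 (pooled SD 2.56) and 4.02 (pooled SD 2.19). They stayed over 5-fold without any 1 cell, as did Cks2 (-3.03, pooled SD 2.08). All were named after their values were seen. Mki67 was bright in WT cell 2 (14.91) and KO cell 4 (14.73) and at most 6.82 elsewhere.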
